A study of Mus musculus with 2 samples.

Results

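The proteasome subunit genes measured here were the genes whose symbol begins with Psma, Psmb, Psmc or Psmd followed by a digit, without pseudogenes and without the immunoproteasome subunits Psmb8, Psmb9 and Psmb10. This rule gave 37 of the 31053 listed genes: 8 alpha and 8 beta genes of the core particle, 6 ATPase genes, 3 further base genes and 8 lid genes of the regulatory particle, 3 assembly chaperone genes, and Psmc3ip. Psmc3ip carries a matching symbol but encodes a partner protein of meiotic recombination, so it was left out of every sum. Microglia, the resident macrophages of the brain, had been sorted from the hypothalamus of young wild-type mice that all received dye-labelled plasma protein 20 hours earlier. Cells carrying the dye (plasma-positive) and cells without it (plasma-negative) each gave 1 droplet library, made from several mice pooled together. Both groups therefore came from injected animals, and the number of mice, their strain and their sex are not given in the sources used here. The sort divides cells by the dye they carried, which is not a treatment assigned to them.

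With 1 library per group no test was possible, and no difference has a replicate check. Levels are given as CPM, counts of unique molecular identifiers (UMIs, one per captured RNA molecule) per 1000000 UMIs of the library, and paired values give the plasma-negative library first. The method counts 3' ends, so levels of different genes are compared as captured molecules without a length correction. Intervals in parentheses are 95% intervals for counting error only, and the spread between animals or repeated sorts is not in them. After filtering, 9860 plasma-negative cells with 34534518 UMIs (median 3270.5 per cell) and 10362 plasma-positive cells with 41984977 UMIs (median 3753) remained. The 10 microglia markers had a UMI in 64.4% to 99.8% of cells, and 27 markers of 8 other cell types together reached 59.2 and 62.3 CPM, the most widespread being Mbp in 7.01% and 8.25% of cells.

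The proteasome is the large protease that degrades proteins tagged with ubiquitin in the cytosol and nucleus. Its barrel-shaped core particle is built of outer rings of alpha subunits, which gate the entrance, and inner rings of beta subunits, of which Psmb5, Psmb6 and Psmb7 carry the cutting sites. The regulatory particle caps the core: its base of ATPases unfolds substrates, and its lid removes ubiquitin chains. In immune cells exposed to interferon the cutting subunits can be replaced by Psmb8, Psmb9 and Psmb10 to form the immunoproteasome, which alters the peptides made for antigen presentation.

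Subunit genes are known to be controlled together, in part by the transcription factor Nfe2l1, which binds antioxidant response elements. Upstream sequences (RefSeq, build GRCm38.p6) were found for 29 of the 36 subunit and chaperone genes, in windows from 250 bases before to 50 bases after the start. Searched on both strands, the letters TGACNNNGC of an antioxidant response element stood in 5 of 29 genes (17.2%), against 13.99% of 27025 genes in the table. The letters CCGGAAG, bound by ETS factors, stood in 10 of 29 genes (34.5%), against 9.93% of all genes. These 10 were unevenly placed: 9 of 14 regulatory particle genes held them and 1 of 12 core genes, Psma6, did. CCAAT stood in 12 of 29 genes (41.4%, against 41.1% of all genes). Different motifs overlapped at 0 places in these windows. The 5 sequences shown are the 150 bases before the start of 2 catalytic core genes with the antioxidant response element and of 3 regulatory genes with the ETS letters, chosen among genes whose match falls inside those 150 bases. Each is written 5′ to 3′ on the strand of its gene, with TGACNNNGC or CCGGAAG, or its reverse complement, in capitals.
Psmb5 (chr14:54617996-54618145, minus strand): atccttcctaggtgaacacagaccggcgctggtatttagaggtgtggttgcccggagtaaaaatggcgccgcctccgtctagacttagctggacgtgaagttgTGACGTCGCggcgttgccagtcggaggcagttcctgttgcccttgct
Psmb6 (chr11:70525207-70525356, plus strand): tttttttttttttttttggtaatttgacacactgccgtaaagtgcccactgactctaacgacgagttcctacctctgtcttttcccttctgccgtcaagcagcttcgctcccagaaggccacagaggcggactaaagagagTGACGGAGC
Psmd2 (chr16:20651502-20651651, plus strand): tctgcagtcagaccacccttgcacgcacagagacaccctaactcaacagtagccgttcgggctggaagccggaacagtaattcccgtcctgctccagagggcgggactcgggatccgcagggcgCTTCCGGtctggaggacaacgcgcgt
Psmd11 (chr11:80428465-80428614, plus strand): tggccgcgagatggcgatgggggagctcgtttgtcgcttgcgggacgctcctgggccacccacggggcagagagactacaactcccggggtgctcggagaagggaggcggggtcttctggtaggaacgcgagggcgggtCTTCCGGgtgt
Psmd6 (chr14:14120946-14121095, minus strand): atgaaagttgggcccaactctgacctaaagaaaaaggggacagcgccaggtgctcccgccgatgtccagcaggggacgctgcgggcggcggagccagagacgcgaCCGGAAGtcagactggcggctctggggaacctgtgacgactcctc

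The capitals begin 47 bases before the start in Psmb5 and 9 bases before it in Psmb6, the genes of the chymotrypsin-like and caspase-like cutting subunits. In the regulatory genes they begin 26 bases before the start of Psmd2, 11 bases before that of Psmd11 and 45 bases before that of Psmd6. Some other matches lay farther off: the antioxidant response element letters of Psmd12 and Psmc6 begin 247 and 227 bases before the start, and the ETS letters of Psmd4 begin 125 bases before it. Others lay as near: the ETS letters of Psmd13 and Psmd12 begin 6 and 17 bases before the start. The antioxidant response element letters of Psmd9 begin 31 bases before it. A match describes the letters only and is no evidence of binding in these cells.

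All 37 genes had at least 1 UMI, and 34 reached 10 CPM in at least 1 library. Together the 36 subunit and chaperone genes took 3208 CPM and 3277 CPM in plasma-negative and plasma-positive microglia, or 0.321% and 0.328% of all UMIs. The 34 genes spanned a 7.57-fold range in plasma-negative cells, from 24.1 CPM (Psmd5) through a median of 95.4 CPM to 182 CPM (Psma3). The range in plasma-positive cells was 7.13-fold. Levels kept nearly the same order in both libraries (Spearman's rho 0.993 over 34 genes, which share each library's total).

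Among the alpha subunits, which form the outer rings and the gate, Psma3 (ENSMUSG00000060073) was the most abundant of the 34 genes in the plasma-negative library. It lies at chr12:70974621-70996347, plus strand in GENCODE M21 on GRCm38, the annotation used for all gene coordinates. Its level was 182 CPM in plasma-negative and 178 CPM in plasma-positive microglia. Psma7 followed at 169 and 178 CPM, so in plasma-positive cells the 2 genes stood level. Psma1 reached 145 and 149.8 CPM and Psma2 130.4 and 133 CPM, while Psma4, Psma5 and Psma6 lay between 75.1 and 113 CPM. Psma8, the form of Psma7 known from testis, was at 4.46 and 3.93 CPM, 154 and 165 UMIs in all.

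The 7 beta subunits at 10 CPM or more spanned 2.49-fold in plasma-negative and 2.58-fold in plasma-positive cells, where the 7 alpha subunits at that level spanned 2.43-fold and 2.29-fold. The cutting subunits differed among themselves. Psmb5 (ENSMUSG00000022193, chr14:54614119-54618022, minus strand) was at 111 CPM in plasma-negative and 112 CPM in plasma-positive microglia. Psmb6 (ENSMUSG00000018286, chr11:70525367-70527858, plus strand), the caspase-like subunit, was at 99.7 and 106 CPM. Psmb7 (ENSMUSG00000026750, chr2:38588036-38644087, minus strand), the trypsin-like subunit, was the lowest beta gene at 53.8 and 55.6 CPM, about the level at which Psmc4 and Psmd13 lay. The structural subunits Psmb1, Psmb2, Psmb3 and Psmb4 ranged from 87.4 CPM (Psmb4, plasma-negative) to 144 CPM (Psmb1, plasma-positive). Psmb11, the cutting subunit of the thymus, had 1 and 3 UMIs, too few for a ratio.

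In the base of the regulatory particle the 6 ATPases were led by Psmc3 at 145 and 148 CPM, with Psmc6 at 114 and 118 CPM and Psmc2 at 106 and 105 CPM. Psmc4 and Psmc1, at 59.4 and 59.8 CPM and 62.9 and 63.4 CPM, were the lowest, although all 6 take equal places in the assembled ring. Psmd4, the ubiquitin receptor, was at 145 and 146 CPM, and the scaffold subunits Psmd1 and Psmd2 were at 75.8 and 73.5 CPM and 70.3 and 69.3 CPM. Among the lid genes that the symbol rule covers, Psmd12 (118 and 114 CPM) and Psmd7 (109.7 and 102 CPM) were highest. The gene of the small lid protein Sem1, which the rule leaves out, was at 236 and 250 CPM. Psmd14, the enzyme that cuts ubiquitin chains off substrates, was among the lowest at 50.9 and 50.8 CPM, below its partner Psmd7 and above only Psmd3 (44.5 and 45.2 CPM).

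The lowest 3 of the 34 were the assembly chaperones, proteins that guide the base together and leave the finished particle. Psmd5 (ENSMUSG00000026869, chr2:34849734-34874968, minus strand) was at 24.1 and 25.01 CPM, Psmd10 (ENSMUSG00000031429, chrX:140948429-140956728, minus strand) at 29.1 and 32.1 CPM and Psmd9 (ENSMUSG00000029440, chr5:123169413-123250131, plus strand) at 34.8 and 33.8 CPM. Psmc3ip was at 3.53 and 3.69 CPM (122 and 155 UMIs). Psmd1 is overlapped by a gene on its own strand, so reads of both may not be told apart. Psma4, Psma5, Psmb7, Psmc3, Psmc3ip, Psmd9 and Psmd13 are overlapped only on the opposite strand. For these it depends on whether counting used strand, which is not given in the sources used here. For 6 members an annotated transcript of another gene matches at 95% or more over at least 100 of the last 300 bases. For Psmd1, Psmb11 and Psmb3 such a gene is itself counted in the matrix. A match need not be a copy: that of Psmd1, Gm21972, overlaps Psmd1 on the same strand. Those of Psmb11 include differently named genes such as Mrpl35 and Tmem263.

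**Figure D1:**
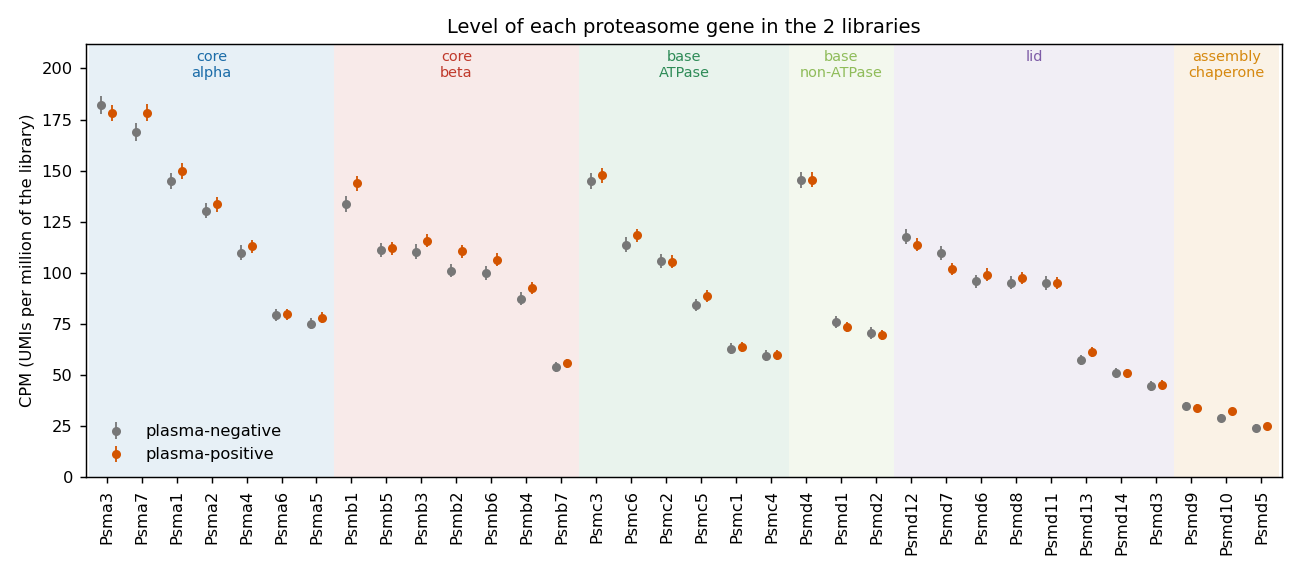
Level of each of the 34 proteasome genes at 10 CPM or more, in CPM, grouped by role, with 1 point per library and 95% Poisson bars for counting error. The points of both libraries lie close together for each of the 34 genes, and the 3 assembly chaperones stand lowest among these. Members under 10 CPM, such as Psma8 and Psmc3ip, are not drawn.

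The first comparison set plasma-positive against plasma-negative microglia. The core particle was slightly higher in cells that carried plasma protein, at 1592 CPM and 1651 CPM summed over its genes, a ratio of 1.037 (1.025 to 1.049). This direction turned to a ratio of 0.976 when cells of like nuclear RNA share were compared, as described further on. The regulatory particle was nearly level at 1528 CPM and 1535 CPM, a ratio of 1.005 (0.993 to 1.016). Core UMIs per regulatory UMI were 1.042 in plasma-negative and 1.075 in plasma-positive cells, so the particles differed from each other by a ratio of 1.032 (1.016 to 1.049). In cells of like nuclear RNA share both particles lay below 1 by nearly the same ratio, as described further on. Over all kept cells the 36 genes together gave 1.022 (1.013 to 1.030).

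Gene by gene the differences were small. Of the 34 genes, 25 had a ratio of plasma-positive over plasma-negative CPM above 1, where 35.7% of all 8355 genes at 10 CPM did, and 9 had one below 1, where 64.3% did. This split depended on the scaling: it was 30 to 4 with TMM or median-of-ratios scaling and 20 to 14 with nuclear RNAs left out of the total. In cells of like nuclear RNA share 18 of the 25 genes above 1 lay below it, and the 9 below 1 stayed there. The median log2 ratio over all genes was -0.017 in that setting, so the typical gene lay below 1 as well. Over all kept cells at the reported scaling the median log2 ratio was 0.03 over the 34 genes and -0.04 over all genes. The interval lay wholly above 1 for 8 genes (11.9% of all genes) and wholly below 1 for 1, Psmd7 (26.4% of all genes). Past 1.1-fold, 1 gene was higher, Psmd10, and 0 were lower, against 6.82% and 16.5% of all genes. None reached 1.5-fold in either direction, and 0.323% and 0.0239% of all genes did.

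The beta subunits carried most of the core difference. All 7 were higher (6 with nuclear RNAs left out of the total, where Psmb5 was at -0.0046 on the log2 scale), 5 with an interval above 1, and their sum was 697 CPM and 737 CPM, a ratio of 1.057 (1.039 to 1.075). In cells of like nuclear RNA share 6 of the 7 lay below 1, among them 4 of the 5 with an interval above 1. Psmb2 (ENSMUSG00000028837, chr4:126677630-126709714, plus strand), a structural subunit, had the largest log2 ratio in the core, 0.13 (0.07 to 0.19), from 101 to 111 CPM. Psmb1 (ENSMUSG00000014769, chr17:15475021-15499751, minus strand) followed at 0.10 (0.05 to 0.16), from 134 to 144 CPM. The 3 cutting subunits summed to 265 CPM and 274 CPM, a ratio of 1.036 (1.008 to 1.065), and did so unequally: the log2 ratio was 0.09 (0.03 to 0.16) for Psmb6, 0.05 (-0.04 to 0.14) for Psmb7 and 0.01 (-0.05 to 0.08) for Psmb5. The 4 structural beta genes gave 1.069 (1.047 to 1.093).

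The alpha ring was closer to even, with a summed ratio of 1.022 (1.006 to 1.037). Psma7 was its only gene with an interval above 1, at 0.08 (0.03 to 0.13) on the log2 scale. Psma3 was the single core gene below 1, at -0.03 (-0.08 to 0.02), and lay above 1 with TMM scaling. Among the regulatory genes 10 were above and 7 below 1, and from 7 to 14 were above under 4 other scalings. The ATPases summed to 1.021 (1.002 to 1.041), with Psmc5 highest at 0.07 (-0.000080 to 0.14), and the non-ATPase base genes to 0.990 (0.964 to 1.016), with Psmd1 at -0.04 (-0.12 to 0.03).

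The lid was divided, 4 genes to each side and up to 6 above 1 under other scalings, with a sum of 0.997 (0.980 to 1.015). Its genes include the lowest and one of the higher values of the regulatory particle. Psmd7 (ENSMUSG00000039067, chr8:107580381-107588464, minus strand), the inactive partner of Psmd14, had the lowest log2 ratio of all 34 genes, -0.11 (-0.17 to -0.05), from 109.7 to 102 CPM, and Psmd12 (ENSMUSG00000020720, chr11:107479484-107504362, plus strand) was next lowest at -0.05 (-0.11 to 0.01). Psmd13, at 0.09 (0.01 to 0.18), lay on the other side. The chaperone Psmd10, which also binds cell-cycle regulators, had the highest log2 ratio of the 34, 0.14 (0.02 to 0.26), on 1005 and 1348 UMIs. The other chaperones Psmd5 and Psmd9 were at 0.06 (-0.08 to 0.19) and -0.04 (-0.16 to 0.07).

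**Figure D2:**
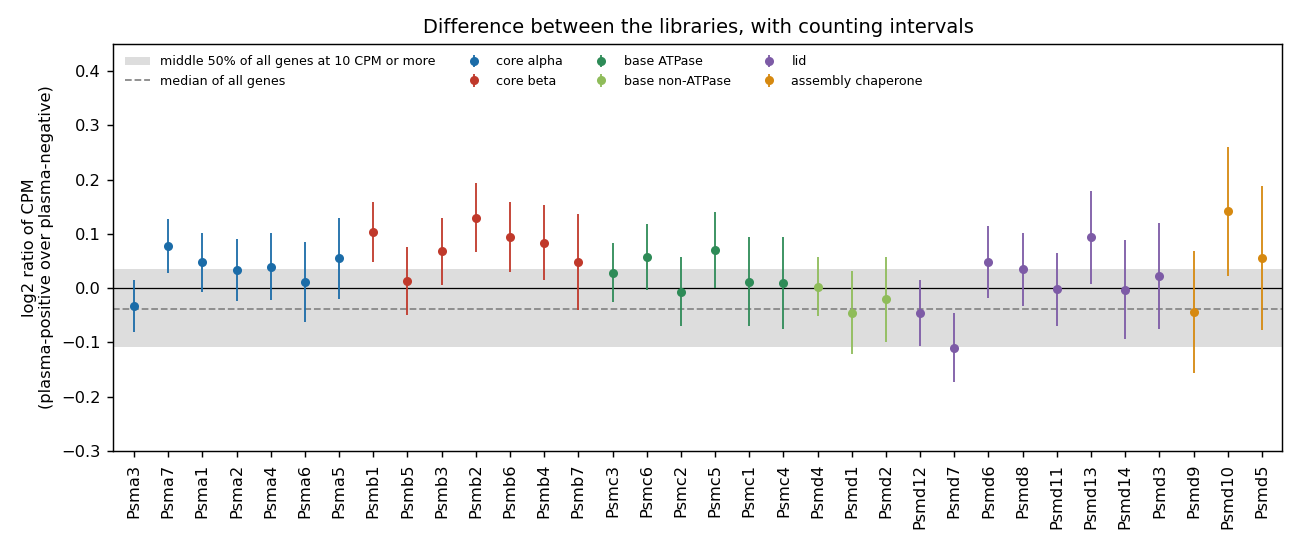
The log2 ratio of plasma-positive over plasma-negative CPM for the 34 genes at 10 CPM or more, by role, with 95% counting intervals. The 7 beta genes all lie above 0 at this scaling (6 with nuclear RNAs left out of the total and 1 in cells of like nuclear RNA share), the lid genes fall on both sides, and all 34 lie between -0.11 and 0.14.

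The libraries also differed in nuclear RNA. The nuclear noncoding RNAs Malat1, Neat1, Kcnq1ot1 and Meg3 summed to 66070.2 CPM and 54406 CPM, almost all of it Malat1 (65694 and 54074 CPM, log2 ratio -0.28). To see how the proteasome genes move with this share, the cells of each library were ranked by it and cut into deciles, 10 equal sets of 986 and 1037 cells. The median nuclear RNA share ran from 2.81% in the lowest to 17.5% in the highest decile of plasma-negative cells, and from 1.92% to 15.02% in plasma-positive cells. Depth ran the opposite way: the lowest deciles held 3299151 and 3775282 UMIs and the highest 982488 and 1370400.

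The proteasome genes were lower where nuclear RNA was higher, the beta genes of the core most of all. The ratio of highest over lowest decile was 0.470 and 0.497 for the core and 0.679 and 0.739 for the regulatory particle. The alpha genes taken alone lay close to the ATPases. From the lowest to the highest decile the beta genes went from 925 to 299 CPM in plasma-negative cells, a ratio of 0.323 (0.286 to 0.365), and from 974 to 371 CPM in plasma-positive cells, a ratio of 0.381 (0.347 to 0.419). The 3 cutting subunits had ratios of 0.348 (0.285 to 0.421) and 0.412 (0.352 to 0.479). The alpha genes had ratios of 0.598 (0.548 to 0.652) and 0.602 (0.559 to 0.647), and the ATPases 0.545 (0.487 to 0.609) and 0.667 (0.609 to 0.730). The lid was nearer to 1, from 744 to 541 CPM with a ratio of 0.728 (0.662 to 0.7998), and from 695 to 560.4 CPM with a ratio of 0.806 (0.743 to 0.874). The other base genes Psmd1, Psmd2 and Psmd4 had log2 ratios of -0.28, -0.14 and -0.19 in plasma-negative and -0.28, -0.25 and -0.60 in plasma-positive cells.

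Of the 34 genes, 25 in plasma-negative and 26 in plasma-positive cells had an interval wholly below 1 between these deciles, against 23.0% and 21.9% of all genes, and 0 had one above, against 36.6% and 41.2%. The median log2 difference was -0.76 and -0.63 over the 34 genes and 0.23 and 0.29 over all genes. Psmb3 was at 154 CPM in the lowest and 43.8 CPM in the highest decile of plasma-negative cells, a log2 difference of -1.81, the lowest of that library. Psmb2 was at 163 and 54.0 CPM in plasma-positive cells, a log2 difference of -1.60, the lowest there. Psmd7 and Psmd3 stood at the other end: Psmd7 was at 108 and 119 CPM in plasma-negative cells, and Psmd3 at 45.03 and 52.5 CPM in plasma-positive cells.

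**Figure D3:**
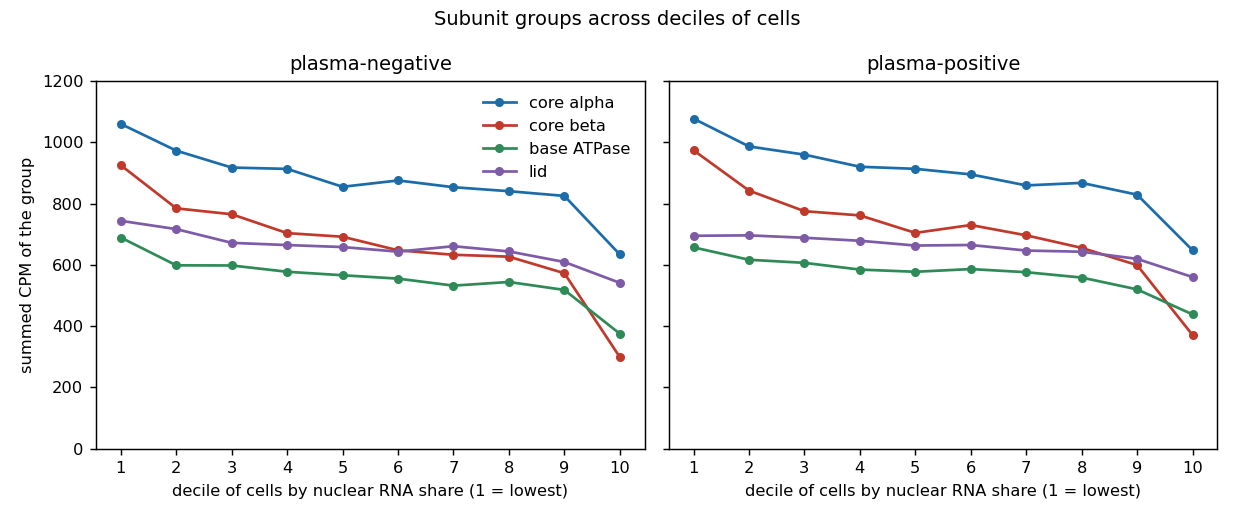
Summed CPM of the gene groups across deciles of cells ranked by nuclear RNA share, from the lowest decile to the highest, in each library. The beta genes descend from 925 to 299 CPM and from 974 to 371 CPM, and the lid genes have the flattest course of the groups drawn, from 744 to 541 CPM and from 695 to 560 CPM.

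Nuclear RNA is itself part of the total by which levels are divided. With the 4 nuclear RNAs left out of the total, a setting chosen after seeing the data, the beta ratio was 0.382 and 0.437 and the lid ratio 0.859 and 0.923. With only cells of 1000 UMIs or more ranked, the beta ratio was 0.4998 and 0.509 and the lid ratio 0.792 and 0.861. The beta genes stayed the lower group in both settings.

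The order of the genes along this gradient was much the same in both libraries (Spearman's rho 0.929 over 34 genes). Longer transcripts had the higher ratios: transcript length had a rho of 0.61 and 0.68 with the log2 difference between deciles, while the length of the whole gene had 0.11 and 0.22. The beta genes have the shortest transcripts, with a median of 899 bases, against 1201 for alpha, 1688 for the ATPases and 1969 for the lid. These are descriptions over 34 genes counted in the same cells.

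The plasma comparison moved with the same measure. A gene's log2 ratio between the libraries had a rho of -0.62 with its mean log2 difference between the nuclear RNA deciles over the 34 genes, and -0.51 over 8351 genes. The libraries were then compared within deciles drawn over the cells of both together. The log2 ratios of the 10 deciles were averaged without weights, and no interval was computed for this mean. The core ratio was 0.976, in place of 1.037, and lay above 1 in 3 of 10 deciles, which ranged from 0.922 to 1.015. Of the genes named above, Psma7, Psmb1 and Psmb6 then had log2 ratios of -0.032, -0.0064 and -0.067, and Psmb2 0.016. The regulatory ratio was 0.975, above 1 in 2 of 10 deciles, so the particles did not differ from each other there as they did over all cells. With nuclear RNAs left out of the total in all cells the ratios were 1.024 and 0.992. The direction of the core difference turned once cells were compared at like nuclear RNA share, and the part of nuclear RNA in it was not tested.

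**Figure D4:**
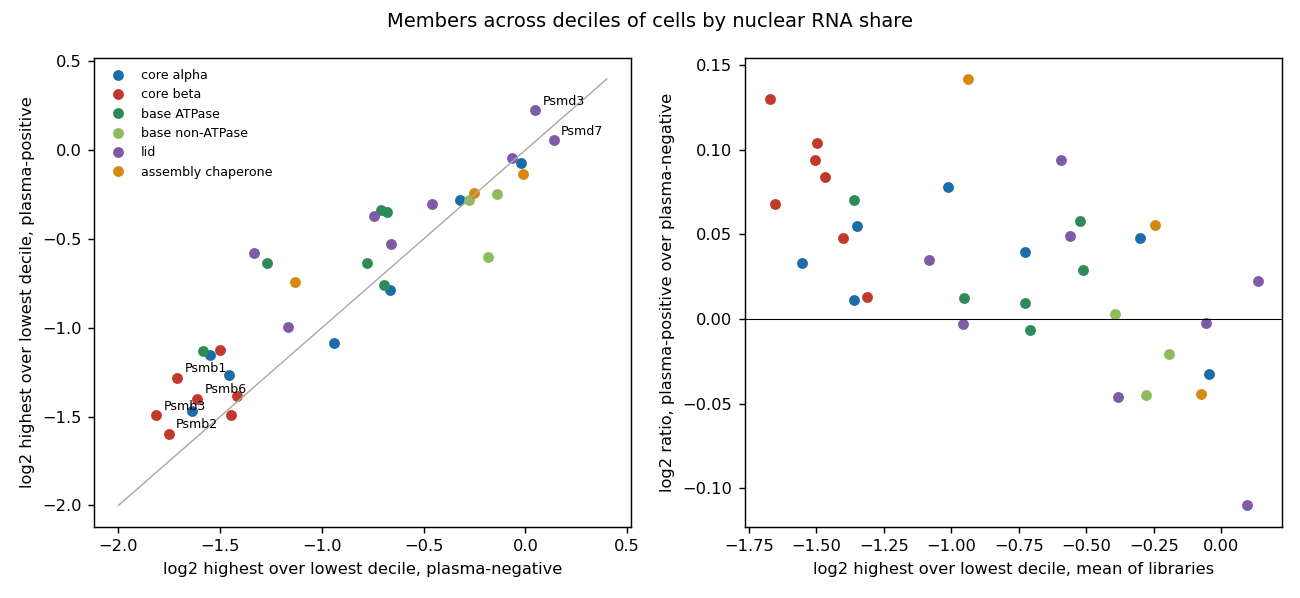
Left, the log2 ratio between the highest and lowest decile by nuclear RNA share for each of the 34 genes in plasma-negative (horizontal) and plasma-positive cells (vertical), coloured by role, with the line of equal values. Right, the log2 ratio between the libraries (vertical) against the mean of those log2 ratios (horizontal), where the beta genes gather at the upper left and Psmd7 lies at the lower right (Spearman's rho -0.62).

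Depth and mitochondrial share were looked at in the same way. From the decile with the fewest to the decile with the most UMIs per cell (medians of 790.5 and 6924 in plasma-negative, 923 and 7966.5 in plasma-positive cells) the core ratio was 1.64 (1.53 to 1.77) and 1.52 (1.43 to 1.62) and the regulatory ratio 1.31 (1.23 to 1.403) and 1.19 (1.12 to 1.26). With only cells of 1000 UMIs or more the core ratio was 1.08 and 1.06. Over all kept cells, in plasma-negative cells 22 of 34 genes had an interval above 1 (21.7% of all genes) and in plasma-positive cells 18 did (20.8%). Along mitochondrial share, from medians of 0.181% to 3.45% and 0.417% to 3.49%, the particles were both lower at the high end: the core ratio was 0.860 (0.819 to 0.904) and 0.835 (0.801 to 0.870) and the regulatory ratio 0.781 (0.743 to 0.821) and 0.812 (0.778 to 0.847). Here 16 and 17 genes had an interval below 1, against 21.0% and 20.3% of all genes. Within deciles of mitochondrial share the core was higher in plasma-positive cells in 10 of 10 deciles, by ratios of 1.012 to 1.069.

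Single cells were compared after thinning each to 1000 UMIs, which kept 9064 plasma-negative and 9759 plasma-positive cells and left out 796 and 603 shallower ones. A thinned cell held 3.22 ± 1.93 (SD over 9064 cells) subunit UMIs in plasma-negative and 3.27 ± 1.95 (SD over 9759 cells) in plasma-positive microglia, with a median of 3 in both. No subunit UMI was seen in 4.94% (4.51 to 5.41) and 4.61% (4.204 to 5.05) of thinned cells, and in 2.22% and 1.71% of all kept cells before thinning. Every cell type uses the proteasome, so no cell type lacking it gives a background for these shares.

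The variance of a single gene over thinned cells was close to its mean. This ratio, the Fano factor, had a median of 1.02 over the 34 genes in both libraries, beside 1.03 over all genes, and was highest for Psma7 (1.097) in plasma-negative and for Psmc3 (1.06) in plasma-positive cells. Summed over all subunits it was 1.15 and 1.16. Thinned cells with 0 regulatory UMIs held a mean of 1.53 (1.48 to 1.59) core UMIs in the plasma-negative library, and those with 5 or more held 1.79 (1.63 to 1.97). In the plasma-positive library the means were 1.59 (1.53 to 1.64) and 1.86 (1.69 to 2.04). At about 3 subunit UMIs per cell the depth does not show whether single cells differ in proteasome content beyond this.

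The genes around the proteasome were taken from lists of its partners. Beside the counts in these lists, 35.7% of all genes at 10 CPM lay above 1 between the libraries, and 11.9% had an interval wholly above it. The immunoproteasome subunits Psmb8, Psmb9 and Psmb10 were all above 1 between the libraries, summing to 374 CPM and 402 CPM, a ratio of 1.076 (1.052 to 1.101). This sum was also lower where nuclear RNA was higher, with ratios of highest over lowest decile of 0.401 (0.344 to 0.464) and 0.527 (0.469 to 0.590). Its ratio between the libraries at like nuclear RNA share was not tested. Psmb8, which replaces Psmb5, was at 205 and 223 CPM and outnumbered Psmb5 by 1.84 to 1 and 1.99 to 1. Psmb10, which replaces Psmb7, outnumbered it by 1.76 to 1 and 1.74 to 1. Psmb9, at 74.1 and 82.7 CPM, stayed below its counterpart Psmb6, at 0.743 and 0.778 of its level. As a sum, captured RNA molecules of the immunoproteasome genes outnumbered those of the standard cutting subunits. The ratio was 1.41 (1.38 to 1.45) to 1 in plasma-negative and 1.47 (1.43 to 1.503) to 1 in plasma-positive cells. These are counts of RNA, and the subunit proteins were not measured.

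Of the 5 activator and inhibitor genes 4 were above 1, 3 with an interval above it, and the sum gave 1.096 (1.074 to 1.119). Psme1 and Psme2, which form the interferon-inducible cap that opens the core, were at 272 and 304 CPM and at 106 and 116 CPM. Of the 8 assembly chaperones 4 were above and 4 below 1 (up to 5 above under other scalings). Their sum, 1.086 (1.064 to 1.108), rested on Pomp, the factor that matures the core and is left inside it for degradation, at 277 and 316 CPM with a log2 ratio of 0.19 (0.15 to 0.23). On the log2 scale the pairing chaperones Psmg1 and Psmg2 were at -0.07 and -0.06 and Psmg4 at 0.12.

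The 8 other proteasome-bound proteins were divided 4 to 4 (up to 5 above 1 under other scalings) and summed to 1.013 (0.997 to 1.029). They ranged from the small lid protein Sem1, at a log2 ratio of 0.08 (0.04 to 0.12), to the ubiquitin ligase Ube3c at -0.10 (-0.19 to -0.01). Among the 8 shuttle and segregase genes, 5 above 1 and 3 below (4 to 6 above under other scalings), Vcp, the ATPase that pulls proteins out of complexes, was at 0.17 (0.12 to 0.22) and the shuttle Rad23b at -0.15 (-0.23 to -0.07). Rps27a, a fusion of ubiquitin to a ribosomal protein, had a log2 ratio of 0.17 (0.15 to 0.18). The transcription list held 1 gene above 1 and 3 below, with 0 to 2 above under other scalings, and Nfe2l1, the factor that raises subunit genes when the proteasome is blocked, was at 114 and 105 CPM with a log2 ratio of -0.13 (-0.19 to -0.06).

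Cells with interferon-response transcripts were then set against cells without them inside each library. The list held 16 genes, among them Ifit3, Isg15 and Irf7, and no proteasome gene. Cells with at least 3 UMIs of it after thinning numbered 134 plasma-negative and 492 plasma-positive, against 6989 and 6896 cells with 0. These are ranges of a score and not cell types: 265 and 480 cells had exactly 2 such UMIs and 65 and 167 exactly 3. Median depth was 3450.5 against 3375 UMIs in the plasma-negative library and 3886.5 against 3845 in the plasma-positive library. The median nuclear RNA share was lower in the cells with interferon transcripts, 6.15% against 6.499% and 4.75% against 5.37%, and its part in the results was not tested.

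Immunoproteasome genes were higher in the cells with interferon transcripts, while the standard core stayed nearer to the other cells. Psmb8, Psmb9 and Psmb10 summed to 531 against 369 CPM in plasma-negative cells, a ratio of 1.44 (1.27 to 1.62), and to 666 against 384 CPM in plasma-positive cells, a ratio of 1.73 (1.64 to 1.83). The activators Psme1 and Psme2 gave 1.58 (1.41 to 1.77) and 2.03 (1.93 to 2.14). The core gave 1.02 (0.953 to 1.09) and 1.08 (1.05 to 1.12), its cutting subunits 0.912 (0.757 to 1.09) and 1.101 (1.02 to 1.19), and the regulatory particle 0.931 (0.864 to 1.00) and 1.03 (0.997 to 1.07).

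Gene by gene, Psmb9 had the highest ratio of the immunoproteasome genes in plasma-positive cells, 1.95 (1.74 to 2.19), with 1.59 (1.21 to 2.06) in plasma-negative cells. Psmb8 was at 1.496 (1.27 to 1.75) and 1.70 (1.58 to 1.83), and Psmb10 at 1.19 (0.901 to 1.54) and 1.62 (1.44 to 1.82). Of the genes these replace, Psmb5 was at 0.892 (0.662 to 1.18) and 1.27 (1.12 to 1.43), Psmb6 at 0.841 (0.607 to 1.14) and 0.971 (0.843 to 1.11), and Psmb7 at 1.08 (0.727 to 1.55) and 1.02 (0.847 to 1.23). Among the 34 genes an interval lay above 1 for 1 in plasma-negative cells (Psma4), against 5.23% of all genes, and below 1 for 2 (Psmd1 and Psmd6), against 7.41%. In plasma-positive cells it lay above 1 for 7 (Psma4, Psma5, Psmb1, Psmb3, Psmb5, Psmc4 and Psmc5), against 7.88%, and below 1 for 0, against 26.1%. The median log2 ratio was -0.02 and 0.04 over the 34 genes and -0.10 and -0.17 over all genes. The highest of these 7 were Psmc4 at 1.39 (1.19 to 1.63) and Psma5 at 1.39 (1.21 to 1.60).

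The libraries were also compared within these sets of cells. Among cells with 0 interferon UMIs the immunoproteasome ratio of plasma-positive over plasma-negative was 1.039 (1.011 to 1.068), below the 1.076 over all cells. Among cells with at least 3 it was 1.254 (1.102 to 1.432). The core ratio was 1.029 (1.016 to 1.043) in cells without and 1.091 (1.012 to 1.177) in cells with interferon transcripts, and Pomp was at 1.132 (1.098 to 1.168) and 1.295 (1.083 to 1.556). The sets were not alike between the libraries. Exactly 3 interferon UMIs were found in 65 of the 134 plasma-negative cells with at least 3. In the plasma-positive library they were found in 167 of 492. The median nuclear RNA share was 6.15% and 4.75% in cells with at least 3, and 6.499% and 5.37% in cells with 0. The part of the score and of nuclear RNA in these ratios was not tested.

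A comparison by Apoe, the gene of a lipid carrier protein, was added after seeing the data. Cells with at least 3 Apoe UMIs after thinning (164 and 650) had a summed subunit ratio of 0.937 (0.895 to 0.981) and 0.922 (0.903 to 0.941) to cells with 0 (8334 and 7962). The lid was at 0.868 (0.779 to 0.963) and 0.872 (0.832 to 0.914), and the core was at 0.970 (0.909 to 1.03) and 0.960 (0.933 to 0.988). The immunoproteasome stood on the other side at 1.09 (0.960 to 1.24) and 1.24 (1.17 to 1.30). Of the 34 genes 2 and 14 had an interval below 1, against 10.9% and 38.8% of all genes, so the share in plasma-positive cells was near that of all genes. The median log2 ratio was -0.09 and -0.15 over the 34 genes and -0.16 and -0.22 over all genes, so the typical gene was lower by more than the typical subunit. The median mitochondrial share was 1.48% against 1.04% and 1.72% against 1.20% and the median nuclear RNA share 5.28% against 6.48% and 4.42% against 5.39%. Median depth was 3478.5 against 3371 and 4370.5 against 3821.5 UMIs. The part of these in the result was not tested.

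Cells with at least 3 UMIs of 10 cell-cycle genes (such as Top2a and Mki67), a comparison also added after seeing the data, were few: 14 plasma-negative and 38 plasma-positive cells, against 8997 and 9633 with 0. Their summed subunit level was 4691 against 3223 CPM in plasma-negative and 4187 against 3282 CPM in plasma-positive cells, ratios of 1.46 (1.31 to 1.62) and 1.28 (1.19 to 1.36). The ATPases were at 2.04 (1.63 to 2.53) and 1.39 (1.19 to 1.62), and the core at 1.32 (1.12 to 1.55) and 1.25 (1.13 to 1.37). An interval lay above 1 for 4 and 10 of the 34 genes, against 7.82% and 12.7% of all genes. The median log2 ratio was 0.54 and 0.30 over the 34 genes and 0.05 and -0.03 over all genes. The immunoproteasome genes, at 1.13 (0.769 to 1.61) and 1.13 (0.919 to 1.38), had sums within counting error of the other cells, but single genes did not: Psmb9 was at 2.03 (1.01 to 3.64) in plasma-negative cells on 11 UMIs, and Psmb10 at 0.570 (0.294 to 0.997) in plasma-positive cells on 12 UMIs. The cell-cycle cells also had a lower nuclear RNA share, 2.41% against 6.42% and 2.85% against 5.30%. Their median depth was higher, 4603 against 3381 and 4680 against 3850 UMIs. So was their median mitochondrial share, 1.49% against 1.06% and 1.67% against 1.26%. The part of these in the result was not tested.

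**Figure D5:**
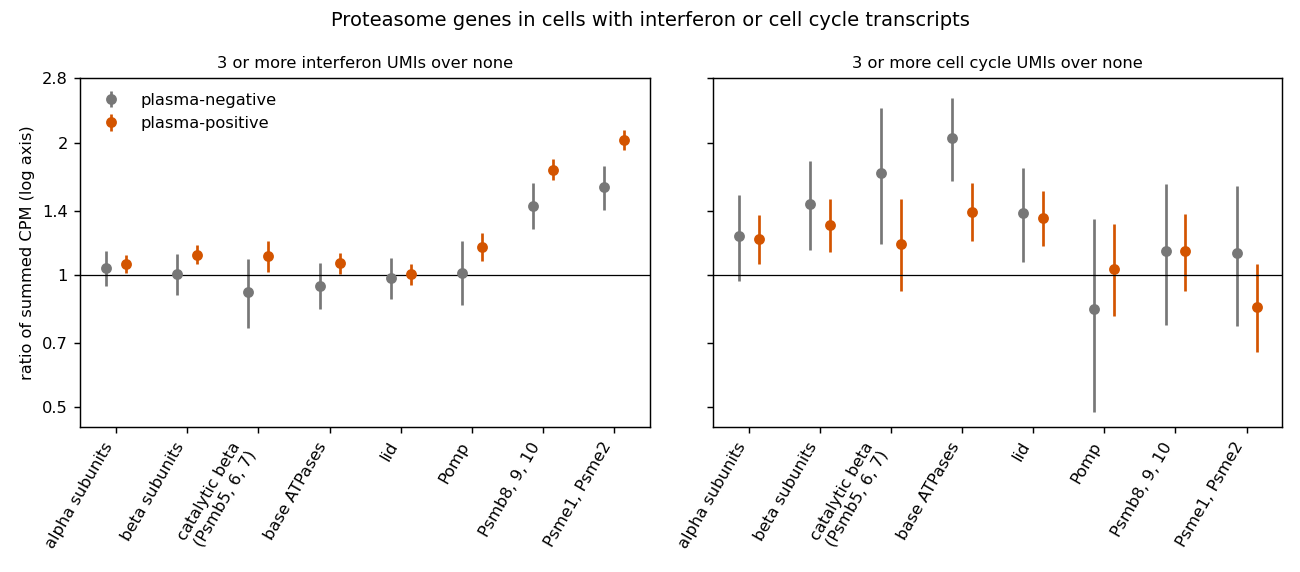
Ratio of summed CPM between cells with at least 3 UMIs of the interferon list (left) or of the cell-cycle list (right) and cells with 0, by gene group and library (log axis), with 95% counting intervals. The immunoproteasome and Psme1 with Psme2 stand highest in the interferon comparison, up to 2.03, and the base ATPases in the cell-cycle comparison, at 2.04 and 1.39.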

How the data were processed

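RNA of single cells was captured in droplets (Chromium 3' chemistry v3.1, per the labels' protocols). The values the authors deposited are raw UMI counts for each gene in each cell. Per the file headers they came from Cell Ranger 6.1.2, while the submitters' processing notes name version 3.0.1. The genome build, the annotation and the use of strand are not given in the sources used here. Cell barcodes, and thus barcodes shared by the libraries, were not analysed here.

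Each group is 1 library. Cells needed 500 or more UMIs, 300 or more genes and no more than 10% mitochondrially encoded UMIs, which left out 18 of 9878 and 28 of 10390 cells. Scrublet (scanpy 1.11.5) called 0 doublets in both libraries, and these calls were not used. Doublets were kept, and an alternative removed the 778 and 859 highest scores. Counts were summed over cells and divided by the library total, with no pseudocount. Comparisons across genes used the 8355 genes at 10 CPM or more in at least 1 library. Intervals are at 95%: Poisson for sums, Clopper-Pearson for shares, and conditional binomial for ratios, all exact. They were computed in Python 3.11.15 with scipy 1.17.1, numpy 2.4.6 and, for tables, pandas 2.3.3, and the script for these was tested on simulated data. TMM factors came from edgeR 4.0.16 in R 4.3.3, on the deposited counts and for scaling only. Cells were thinned to 1000 UMIs for values per cell. Gene coordinates and transcript lengths (the longest annotated transcript of each gene) are from GENCODE M21 on GRCm38, which need not be the authors' build.

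The members and gene lists were chosen with earlier results of these data known. Named in the text are all members and genes of the partner lists; a count over the list of ubiquitin genes is not reported here. Described singly are members with the 3 highest and 3 lowest ratios, the 3 highest and 3 lowest levels, the 3 cutting subunits and the highest Fano factor. The overlapping genes, the genes with matching end sequence and the interval counts per gene were named after their values were seen. Alternatives varied doublets, cell filters, scaling, the CPM minimum, thinning and comparison within deciles of cells.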

Additional observations from a re-analysis of the deposited data

Results flagged for a closer look

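Between cells with at least 3 interferon-response UMIs and cells with 0, several summed groups lay below 1 in plasma-negative and above 1 in plasma-positive microglia. The ratio was 0.9754 in plasma-negative and 1.058 in plasma-positive cells for all subunits and chaperones together. For the regulatory particle it was 0.9305 and 1.032, with 0.9425 and 1.063 for its ATPases and 0.9815 and 1.001 for its lid. The cutting beta subunits gave 0.9116 and 1.101, and the assembly chaperones 0.9342 and 1.059. Each library is 1 sample, so the difference between the libraries was not tested. The plasma-negative side rests on 134 cells, and its counting intervals span 1 for all 6 sums. On the plasma-positive side the interval also spans 1 for the regulatory particle (0.997 to 1.069), its lid (0.949 to 1.056) and the assembly chaperones (0.915 to 1.220). For the other sums it lies above 1.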

How the results depend on the processing

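Of 506 values recomputed under alternatives, 414 stayed within counting error of the reported value or within 1.5 times a reported count, and 92 lay outside these limits. Leaving aside counts of members, 55 of 480 values lay on the other side of 1 (or of 0 on the log2 scale) from the reported value, and for 7 of the 55 the counting interval of the reported value had not held 1 (or 0). The plasma ratio of all subunits, reported at 1.022, was 1.049 with TMM scaling, 1.051 with median-of-ratios factors, 1.036 without mitochondrial and ribosomal protein genes in the total, 1.009 without nuclear RNAs in it (a setting added after seeing the data), 1.035 within deciles of mitochondrial share, and turned to 0.977 within deciles of nuclear RNA share. The core, reported at 1.037, was 1.065, 1.067, 1.052 and 1.024 under these 4 scalings, 1.02 in cells thinned to 1000 UMIs, and turned to 0.976 within nuclear RNA deciles. The regulatory particle, reported at 1.005, was 1.032, 1.034, 1.019 and 0.992, with 1.022 within mitochondrial and 0.975 within nuclear RNA deciles. Within nuclear RNA deciles the median log2 ratio was -0.043 over the members and -0.017 over all genes. There, 18 of the 25 members above 1 lay below it. For 5 of the 18 the reported interval had been wholly above 1: Psma7 to -0.032, Psmb1 to -0.0064, Psmb3 to -0.058, Psmb4 to -0.049 and Psmb6 to -0.067. The cause was not tested.

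The number of members at 1.1-fold or more higher, reported as 1, was 0 with cells of 1000 UMIs or more, without nuclear RNAs in the total, within nuclear RNA deciles and at a minimum of 50 CPM. It was 2 with a mean over cells, without mitochondrial and ribosomal protein genes, within mitochondrial deciles and with no CPM minimum, and 3 with thinning, TMM or median-of-ratios scaling. The number lower was 1 with no CPM minimum, Psma8. With a minimum of 2 interferon UMIs the immunoproteasome ratio in plasma-positive cells was 1.396. With a minimum of 5 it was 1.87 in plasma-negative and 2.13 in plasma-positive cells, where the core was 1.18. In cells of 1000 UMIs or more, the highest over lowest decile in plasma-negative cells was 0.921 for the core and 0.825 for the regulatory particle by mitochondrial share, 1.08 for both by UMIs, and 0.623 and 0.782 by nuclear RNA share. In plasma-positive cells it was 1.06 and 1.04 by UMIs and 0.606 and 0.802 by nuclear RNA share. Without nuclear RNAs in the total the nuclear RNA deciles gave 0.555 and 0.801 in plasma-negative and 0.569 and 0.847 in plasma-positive cells.

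No paired analysis was possible because there is 1 library in each group. For the same reason no alternative left out a library. Depth limits the values per cell, at about 3 subunit UMIs in 1000. Psmb11 had 1 and 3 UMIs, Psmc3ip 122 and 155, and Psma8 154 and 165.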
